A study of Mus musculus with 6 samples.

Results

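Extracellular proteolysis in cultured macrophages was examined through the genes of 4 related families, in M2-like bone marrow-derived macrophages (BMM) with and without the transcription factor c-Maf. The families were the matrix metalloproteinases (Mmp), the disintegrin and metalloproteinases (Adam), the Adam relatives with thrombospondin motifs (Adamts) and the tissue inhibitors of metalloproteinases (Timp). Members were all genes whose array name begins with Mmp, Adam or Adamts and a digit, or is one of Timp1 to Timp4. This gave 79 genes on 117 probes, of 34647 genes or unnamed features on the array, and each gene was represented by its probe of highest mean processed intensity. A gene was taken as detected where that intensity was well above background on at least 2 of the 5 scanned arrays. By this rule 35 of the 79 were detected, of 20199 genes or features detected in all. The 35 were 10 of 23 Mmp, 14 of 33 Adam, 8 of 19 Adamts and 3 of 4 Timp genes.

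The study compared 3 WT with 3 c-Maf KO samples by 1-colour microarray, asking how gene expression of M2-like BMM depends on c-Maf. Per the labels the cells came from chimeric mice made with fetal liver of either genotype, through suspensions of fetal liver and bone marrow, and were grown in medium with 10% serum and 10 ng/ml M-CSF, the macrophage growth factor, added daily from day 4. The labels give neither the age or strain of the mice nor the cells that the hosts still had. Nor do they tell if each replicate was a mouse of its own, so p-values cover only the spread among these samples, which may be technical.

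Scanner files of 5 arrays were analysed (all 3 of WT, and replicates 2 and 3 of c-Maf KO). For c-Maf KO replicate 1 a scanner file was not analysed here, and its values come from the deposited value table, which covers all 6 samples. Maf itself had log2 ratios of 1.92, 1.98 and 2.03 in WT and -2.22, -2.36 and -1.92 in c-Maf KO. A second Maf probe was well above background on all 3 WT arrays and on 0 of the 2 c-Maf KO arrays, so it gives only a bound in c-Maf KO. The number of arrays limits the precision, and 95% intervals over the 35 detected genes reached a median of 0.372 log2 units to either side. All WT arrays occupied row 1 of the slide and all c-Maf KO arrays row 2, so the slide row cannot be told apart from genotype. The labels give liver as the tissue, but of 6 hepatocyte markers Alb, Ttr, Apoa1 and Hnf4a were not detected, while 2, Afp and Serpina1a, were. The list of macrophage markers had 10 names, of which Adgre1 and Emr1 are 1 gene, and the 9 genes, among them Csf1r, Cd68 and Mertk, were all detected.

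Mmp enzymes are zinc proteases that cleave collagens, elastin and other matrix proteins, and most are made as inactive precursors. Adam proteases are membrane proteins, several of which cut cytokines, growth factors and receptors off the cell surface, a step called shedding. Adamts enzymes are secreted and trim procollagens and the cartilage proteoglycan aggrecan, and Timp proteins bind and block the active site of these proteases. Macrophages are known as a source of Mmp12, the macrophage elastase, and of Adam17, which releases tumour necrosis factor. c-Maf belongs to the AP-1 superfamily and binds long palindromes that begin with TGCTGA and have an AP-1-like core.

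The stretch of 250 bases before the RefSeq start of a gene was searched on both strands for 3 words, the AP-1 site TGANTCA, its variant TGAGTAA and the Maf word TGCTGA, which can overlap each other. Over 32851 mouse promoters of this length (RefSeq, GRCm38.p6) the shares with a match were 6.75%, 2.25% and 16.1%. For the 23 detected members found in the promoter table, with 27 promoters, TGANTCA was present before Adam19, Mmp12 and Mmp13, TGCTGA before Mmp13 and Mmp14, and TGAGTAA before none. A match is only a description of these letters. The 5 promoters below are a selection. Timp1, Mmp11 and Mmp14 had higher values in every c-Maf KO sample than in any WT sample, and Mmp27 had lower ones. Mmp13 is the only one of the 23 with both words. Promoters not shown include those of Mmp23, Adamts2 and Adam6b, also higher in this way, and of Timp2, Adam19 and Adam22, also lower. Among these only Adam19 held a word, TGANTCA. Each line gives the 250 bases, 5′ to 3′ on the gene's strand, ending just before the start, with matches in capitals. The positions are chrX:20869916-20870165 (plus strand) for Timp1, chr10:75932503-75932752 (minus strand) for Mmp11, chr14:54431348-54431597 (plus strand) for Mmp14, chr9:7571146-7571395 (plus strand) for Mmp27 and chr9:7272264-7272513 (plus strand) for Mmp13.
Timp1: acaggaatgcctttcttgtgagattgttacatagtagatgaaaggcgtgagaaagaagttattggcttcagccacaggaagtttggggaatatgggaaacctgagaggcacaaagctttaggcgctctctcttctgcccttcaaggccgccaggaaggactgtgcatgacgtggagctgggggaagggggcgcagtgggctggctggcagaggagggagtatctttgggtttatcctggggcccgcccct
Mmp11: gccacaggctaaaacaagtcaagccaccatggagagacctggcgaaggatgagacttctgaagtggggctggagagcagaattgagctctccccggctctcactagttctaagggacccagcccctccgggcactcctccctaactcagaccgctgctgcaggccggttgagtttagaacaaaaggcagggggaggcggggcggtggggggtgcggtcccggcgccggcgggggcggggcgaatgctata
Mmp14: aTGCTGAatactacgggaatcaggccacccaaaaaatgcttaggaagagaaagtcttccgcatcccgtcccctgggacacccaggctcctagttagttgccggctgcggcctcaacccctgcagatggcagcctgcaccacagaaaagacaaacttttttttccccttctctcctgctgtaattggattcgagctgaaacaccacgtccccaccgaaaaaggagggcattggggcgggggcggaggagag
Mmp27: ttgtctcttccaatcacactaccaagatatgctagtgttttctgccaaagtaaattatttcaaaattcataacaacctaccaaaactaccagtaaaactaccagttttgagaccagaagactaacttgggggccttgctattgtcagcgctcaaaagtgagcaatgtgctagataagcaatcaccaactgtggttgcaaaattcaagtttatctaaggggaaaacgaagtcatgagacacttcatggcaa
Mmp13: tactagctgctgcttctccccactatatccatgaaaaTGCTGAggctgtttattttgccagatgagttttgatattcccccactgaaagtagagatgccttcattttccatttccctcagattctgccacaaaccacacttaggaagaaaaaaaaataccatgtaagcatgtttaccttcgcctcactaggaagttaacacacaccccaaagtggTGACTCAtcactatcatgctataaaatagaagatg
Counted from the start, the AP-1 word of Mmp13 begins at -35 and its Maf word at -213, and the Maf word of Mmp14 begins at -249. Timp1, Mmp11 and Mmp27 held none of the 3 words in this window.

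Between the genotypes, no member passed the test over all genes. Values are log2 ratios of a sample to the probe's median over the 6 samples, differences are c-Maf KO minus WT in log2 units, and a call is an adjusted p under 0.05 in limma's moderated test with Benjamini-Hochberg adjustment over the 20199 genes or features. Of the 35 detected members 0 were called with all 6 samples, where 7 of all 20199 were called (0.0347%), and 0 on the 5 scanned arrays, where 7 were called as well (0.0347%). At an unadjusted p under 0.05, 7 members lay higher and 3 lower, against 6.7% and 5.86% of all genes. On the 5 arrays 9 members had an unadjusted p under 0.05, against 11.1% of all genes. The smallest adjusted p of a member was 0.1004 with 6 samples and 0.236 on 5 arrays, both for Mmp11. With a variance trend and robust estimation, 1 member, Mmp11, was called (adjusted p = 0.0288), among 143 genes called in all (0.708%).

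The sizes of the differences were spread widely. The difference exceeded 0.5 for 10 of the 35 members, against 3.98% of all genes. One of the 10 was Adamts5, which was well above background in WT only and has a bound in c-Maf KO, so 9 of the other 34 remain. The difference was below -0.5 for 2, Mmp27 and Adam33, against 1.94%. The median absolute difference was 0.312 for the detected members and 0.0981 for all genes, and the median signed difference was 0.10 and 0.0018. Without Adamts5, a choice made after its values were seen, the members' medians were 0.285 and 0.07. In 7 members every c-Maf KO value lay above every WT value, against 11.1% of all genes, and in 5 every c-Maf KO value lay below, against 8.86%. The 7 were Timp1, Mmp11, Mmp23, Adamts2, Mmp2, Mmp14 and Adam6b, and the 5 were Mmp27, Timp2, Adamts10, Adam19 and Adam22. These shares rest on few genes, and they were not compared by a test. By family the median difference was 0.72 for the 3 Timp genes, 0.44 for the 8 Adamts (0.32 without Adamts5), 0.31 for the 10 Mmp and -0.05 for the 14 Adam genes. The Timp median is the value of Timp3 alone, and the 3 Timp differences ran from -0.25 to 1.04.

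**Figure D1:**
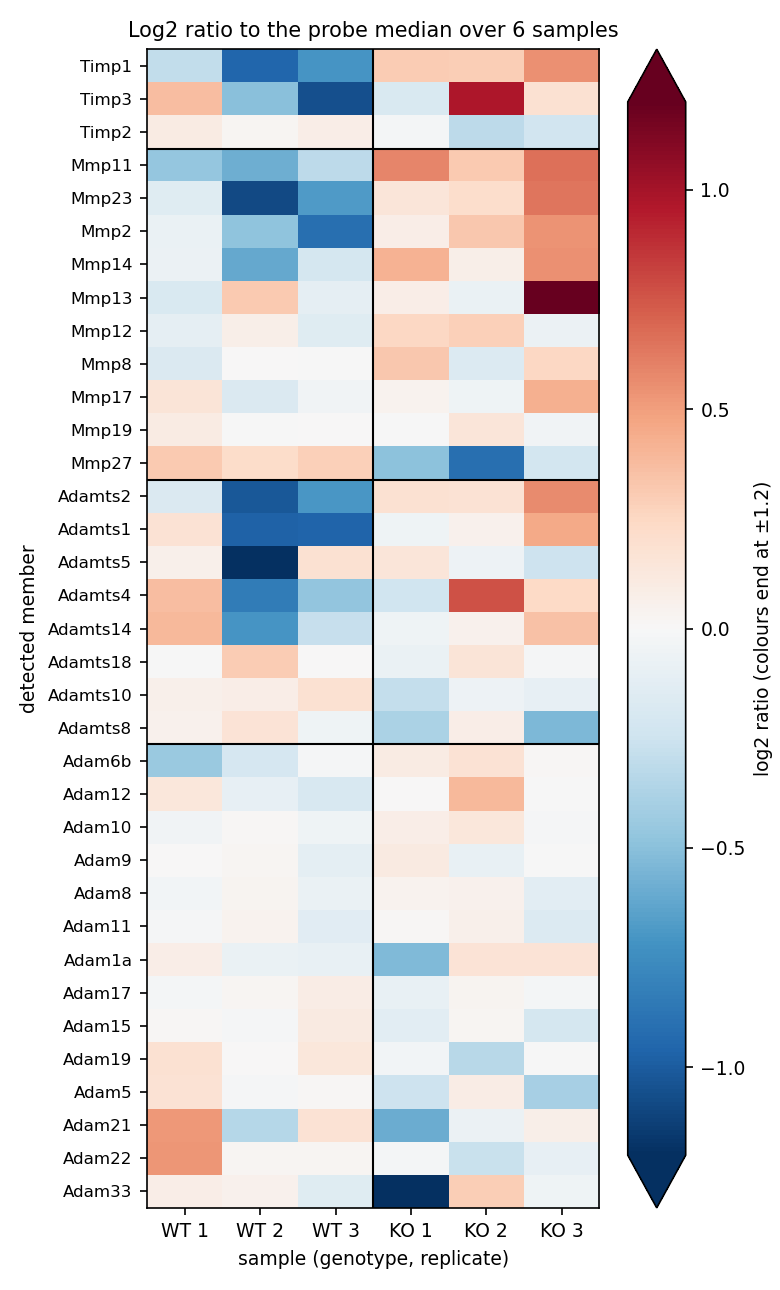
Log2 ratio of each of the 35 detected members (rows, grouped by family) in each of the 6 samples (columns), relative to the probe's median over the samples. Timp1, Mmp11, Mmp23, Mmp2 and Adamts2 are on the blue side in WT and the red side in c-Maf KO, and Mmp27 is the reverse. The replicate 1 cells are nearly white for Mmp2 (-0.08 and 0.08) and pale for Mmp23 and Adamts2. Most Adam rows are pale, and Adam33 has 1 dark cell, c-Maf KO replicate 1 at -2.41.

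**Figure D2:**
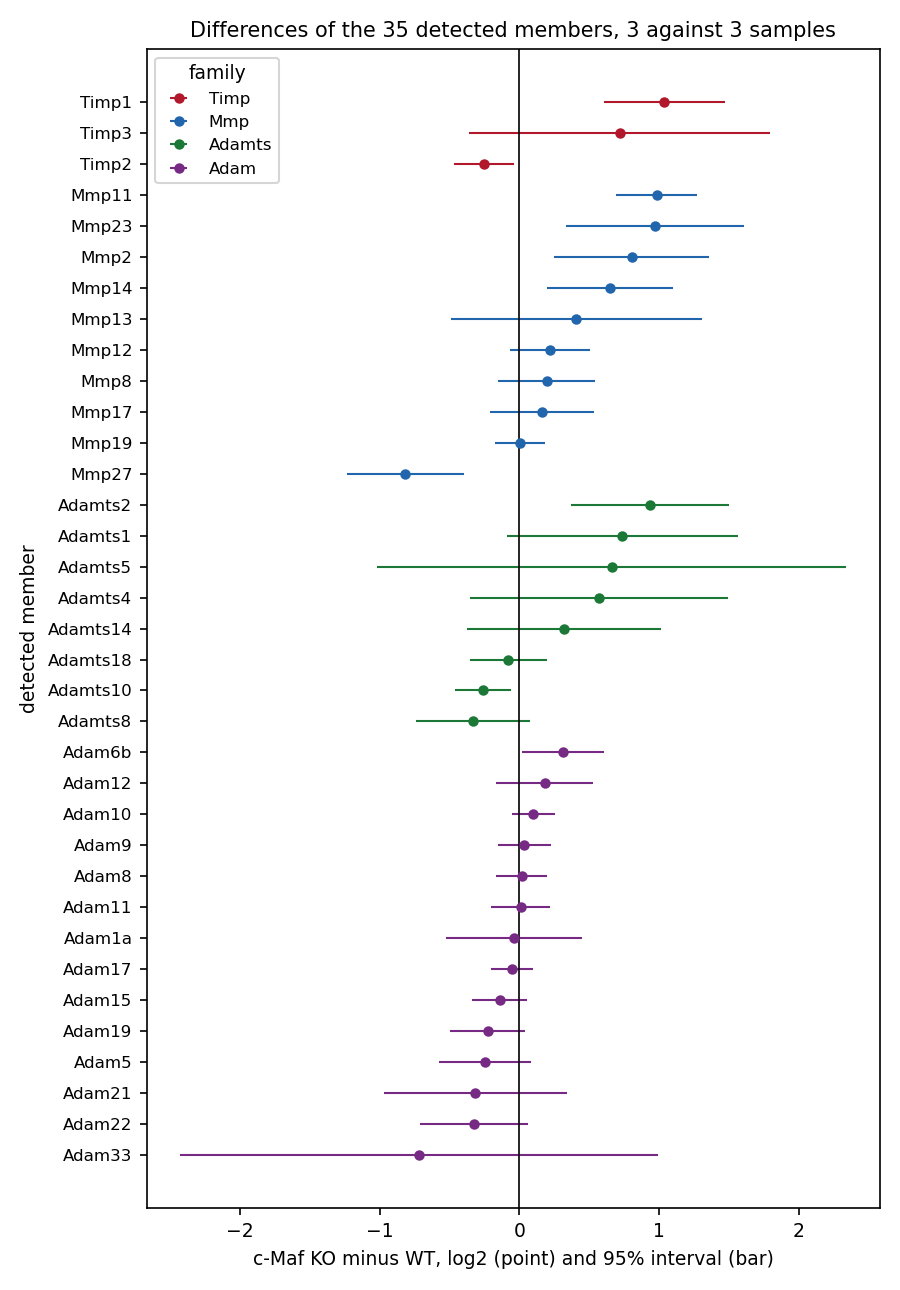
Difference c-Maf KO minus WT in log2 units for the 35 detected members, with points for the estimate and bars for its 95% interval from limma, 3 against 3 samples. Timp1 (1.04) and Mmp11 (0.98) lie farthest to the right, Mmp27 (-0.82) farthest to the left, and the interval of Adam33 spans from -2.43 to 0.99.

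Among the inhibitors, Timp1 and Timp2 lay in opposite directions. Timp1, a secreted inhibitor of most soluble Mmp enzymes, had log2 ratios of -0.30, -0.95 and -0.70 in WT and 0.31, 0.30 and 0.55 in c-Maf KO, in the order of replicates 1 to 3 used throughout. All c-Maf KO values lay above all WT values, and WT replicate 1 was the closest to them. The difference was 1.04 (SE 0.18, 95% interval 0.60 to 1.47, adjusted p = 0.146), a 2.05-fold higher level in c-Maf KO, and on the 5 arrays it was 1.07 (adjusted p = 0.311). Without WT replicate 1 the difference was 1.21 and Timp1 was called (adjusted p = 0.0480), when 100 genes were called in all. Leaving out WT replicate 2 instead gave 0.88, and Timp1 was not called. Its probe lies at chrX:20451802-20451861 in mm9, the build of the array files, which is that of all probe positions given here.

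Timp2, which blocks Mmp2 and also takes part in its activation by Mmp14, had log2 ratios of 0.10, 0.02 and 0.08 in WT and -0.02, -0.31 and -0.23 in c-Maf KO. Without overlap of the groups, c-Maf KO replicate 1 was 0.0461 below the nearest WT sample. The difference was -0.25 (SE 0.09, adjusted p = 0.330). A second Timp2 probe gave a difference of -0.07, and there the c-Maf KO replicate 1 value of 0.05 was the highest of the 6. The mean of both probes gave -0.16, so the size for Timp2 depended on the probe. Timp3, which binds to the matrix and also blocks Adam17, had log2 ratios of 0.37, -0.50 and -1.05 in WT and -0.18, 0.97 and 0.18 in c-Maf KO. The groups overlapped, with a difference of 0.72 (SE 0.44, adjusted p = 0.542). Without c-Maf KO replicate 2 or without WT replicate 3 its difference was 0.39, and without WT replicate 1 it was 1.10. Timp4 was not well above background on any of the 5 arrays.

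The mean of the stromal marker genes put the 6 samples in the same order as Timp1. Of 12 fibroblast and stromal markers 11 were detected, all 11 had positive differences with a median of 0.87, 7 of them lay higher without overlap (11.1% of all genes), and 0 were called (0.0347% of all genes). Their mean log2 ratio was -0.06, -0.89 and -0.61 in WT and 0.17, 0.12 and 0.53 in c-Maf KO. Lum was the only one not detected. The 3 detected smooth muscle and pericyte markers had means of -0.09, -0.97 and -0.59 in WT and 0.09, 0.29 and 0.30 in c-Maf KO. Of the 9 macrophage markers 8 had negative differences, with a median of -0.19 over the 9. Without overlap 4 lay lower (8.86% of all genes) and 1, Lyz2, lay higher by 0.33 (11.1% of all genes). The means of the 9 ran from 0.02 to 0.06 in WT and from -0.21 to -0.00059 in c-Maf KO. The part of these cells in the results was not tested. In bulk samples such as these, fewer cells of a type and less RNA per cell cannot be told apart.

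**Figure D3:**
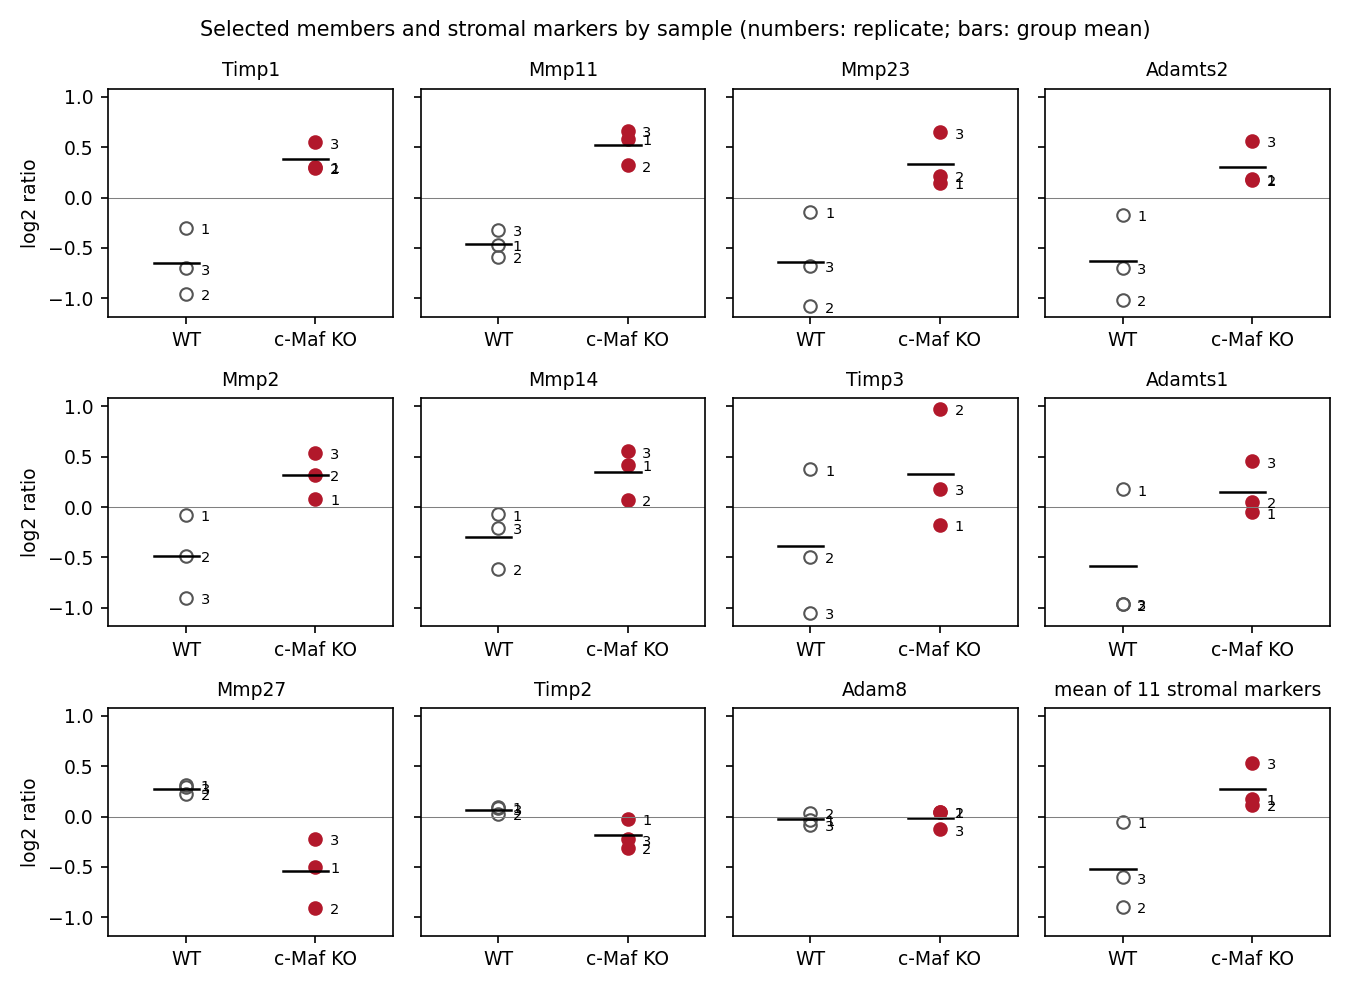
Log2 ratio by sample for 11 members and for the mean of 11 stromal markers, with open circles for WT, filled circles for c-Maf KO, replicate numbers beside them and bars at the group mean. In Timp1, Mmp23, Adamts2, Mmp2 and Mmp14, as in the stromal mean, WT replicate 1 is the highest WT sample and c-Maf KO replicate 3 the highest c-Maf KO sample, whereas in Mmp11 WT replicate 3 is the highest WT sample.

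Of the gelatinases, which digest denatured collagen, Mmp2 was detected and Mmp9 was not. Mmp2 (chr8:95376840-95376899) had log2 ratios of -0.08, -0.48 and -0.90 in WT and 0.08, 0.32 and 0.54 in c-Maf KO. All c-Maf KO samples lay above all WT samples, with both replicates 1 as the nearest pair. The difference was 0.80 (SE 0.23, adjusted p = 0.267), or 1.74-fold. Mmp9 was well above background on 1 array only, so no fold is given for it.

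Of 6 membrane-type Mmp genes 2 were detected, Mmp14 and Mmp17. Mmp14, which activates the Mmp2 precursor at the cell surface and cleaves fibrillar collagen, had log2 ratios of -0.07, -0.62 and -0.21 in WT and 0.42, 0.07 and 0.55 in c-Maf KO. With no overlap, the difference was 0.65 (SE 0.18, adjusted p = 0.267), or 1.57-fold. Mmp17, a membrane-type enzyme anchored by a lipid, had values of 0.16, -0.17 and -0.04 in WT and 0.04, -0.05 and 0.43 in c-Maf KO. The groups overlapped and the difference was 0.16 (SE 0.15, adjusted p = 0.683). Leaving out c-Maf KO replicate 3 gave 0.02, and leaving out replicate 2 gave 0.26. The probe of Mmp14 was dim, with a mean processed intensity of 109.9. Its difference on the 5 arrays was 0.61, and 0.36 with normexp background correction. Normexp was run with an offset of 50 added to every intensity, which by itself shrinks the log2 ratios of dim probes. A smaller difference with normexp is thus in part set by this offset.

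Among the stromelysins and matrilysin, only Mmp11 was detected. Mmp11 (stromelysin 3), known for its expression in tissue stroma, had log2 ratios of -0.47, -0.59 and -0.32 in WT and 0.59, 0.32 and 0.66 in c-Maf KO. The gap between the groups was 0.637 log2 units, and the WT values had an SD of 0.136. The difference was 0.98 (SE 0.12, 95% interval 0.69 to 1.27, adjusted p = 0.1004), or 1.97-fold. Its probe (chr10:75386024-75386083) was dim as well, with a mean processed intensity of 71.6. On the 5 arrays the difference was 0.95, and 0.38 with normexp, whose offset of 50 shrinks log2 ratios at such intensities. Mmp3, Mmp7 and Mmp10 were not well above background on any array.

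Mmp23, a membrane-anchored member of unusual domain structure, lay in the same range as Timp1. Its log2 ratios were -0.15, -1.08 and -0.68 in WT and 0.15, 0.21 and 0.65 in c-Maf KO. WT replicate 1 was again nearest to c-Maf KO, without reaching it, and the difference was 0.97 (SE 0.26, adjusted p = 0.251), or 1.96-fold. Mmp19, a broad matrix protease, had values from -0.0025 to 0.10 in WT and from -0.04 to 0.15 in c-Maf KO, with a difference of 0.0015 (95% interval -0.18 to 0.18, adjusted p = 0.996).

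The order of samples within each genotype recurred across these genes. Of the 7 members with higher, non-overlapping c-Maf KO values, WT replicate 1 was the highest WT sample in 5 (71.4%) and c-Maf KO replicate 3 the highest c-Maf KO sample in 6 (85.7%). Over all 2246 genes with such values the shares were 43.6% and 26.7%. The same 2 samples were the highest of their groups in the stromal marker mean, at -0.06 and 0.53, and the part of stromal cells in these values was not tested.

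A block of Mmp genes on chromosome 9 held members that differed in sign. In 414939 bases, from 7282762 to 7697700, lay the probes of 10 Mmp genes, of which 4 were detected. The other 6, Mmp1a, Mmp1b, Mmp3, Mmp7, Mmp10 and Mmp20, were well above background on 0 of the 5 arrays.

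Mmp13 and Mmp8 are collagenases, which make the first cut in fibrillar collagen. Mmp13 had log2 ratios of -0.18, 0.31 and -0.10 in WT and 0.08, -0.08 and 1.25 in c-Maf KO. Its difference of 0.41 (SE 0.37, adjusted p = 0.667) rested on c-Maf KO replicate 3, and without that sample it was -0.01. Mmp8, known as neutrophil collagenase, had values of -0.17, 0.0049 and -0.0049 in WT and 0.33, -0.16 and 0.25 in c-Maf KO, with a difference of 0.20 (SE 0.14, adjusted p = 0.590), which moved to 0.10 or 0.35 when c-Maf KO replicate 1 or 2 was left out. All 8 neutrophil markers were detected, and their mean log2 ratio was -0.17, -0.06 and 0.45 in WT and -0.32, 0.35 and -0.35 in c-Maf KO. The list was split, with 6 negative and 2 positive differences. Only 1, Ly6g, had groups that did not overlap (11.1% of all genes lay higher so), with a difference of 1.55 (adjusted p = 0.0771). WT replicate 3 and c-Maf KO replicate 2 were the highest of their groups in the mean of these markers, while WT replicate 2 and c-Maf KO replicate 1 were the highest for Mmp8.

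Mmp12, the macrophage elastase, had log2 ratios of -0.11, 0.07 and -0.15 in WT and 0.25, 0.28 and -0.07 in c-Maf KO. The groups overlapped through c-Maf KO replicate 3 and WT replicate 2, and the difference was 0.22 (SE 0.12, 95% interval -0.07 to 0.50, adjusted p = 0.4999). Without c-Maf KO replicate 3 it was 0.33, and without c-Maf KO replicate 2 it was 0.15. A second Mmp12 probe gave 0.21. Both Mmp12 probes were well above background on all 5 arrays.

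Mmp27 lay lower in c-Maf KO. This little-studied member, related to the stromelysins, had log2 ratios of 0.31, 0.22 and 0.29 in WT and -0.50, -0.90 and -0.22 in c-Maf KO. The WT samples lay close together, with an SD of 0.0471, and all c-Maf KO samples were below them, with a gap of 0.444. The difference was -0.82 (SE 0.17, 95% interval -1.23 to -0.40, adjusted p = 0.192), so that WT was 1.76-fold higher, and on the 5 arrays it was -0.84 (adjusted p = 0.351). The Mmp27 probe (chr9:7581328-7581387) lies 13031 bases from that of Mmp8, whose difference was 0.20.

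**Figure D4:**
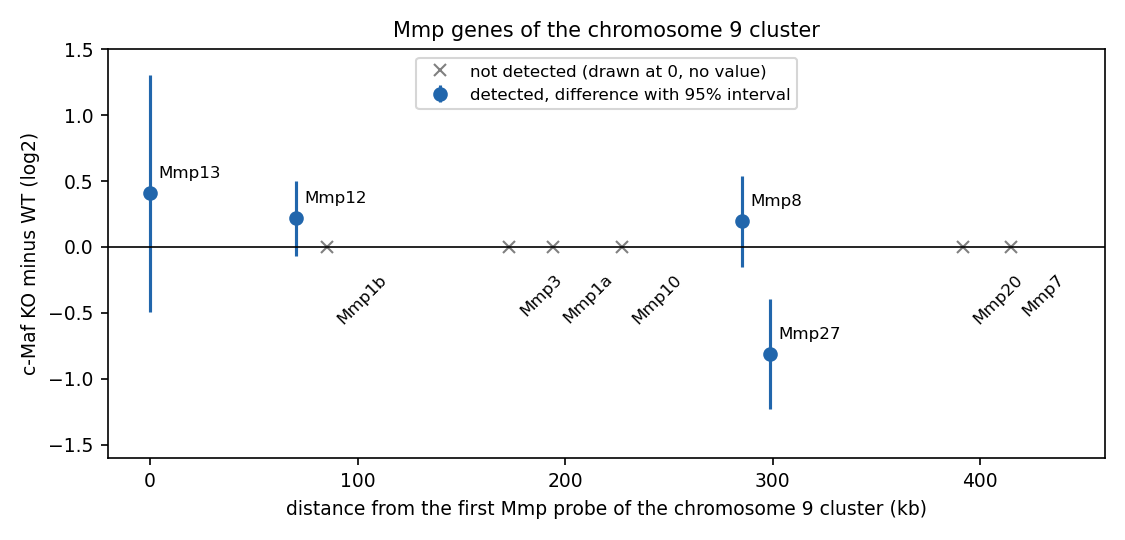
Difference c-Maf KO minus WT in log2 units (points with 95% intervals) against the distance of each Mmp probe from the first one on chromosome 9, in kb, with crosses at 0 for genes not detected, which have no value. Mmp13 (0.41), Mmp12 (0.22) and Mmp8 (0.20) have intervals that include 0, and Mmp27 lies at -0.82 close to Mmp8.

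Of the 9 Adam genes grouped as sheddases 8 were detected, 4 with positive and 4 with negative differences and a median of -0.02, and Adam28 was not. The 8 differences ran from -0.72 for Adam33 to 0.18 for Adam12. Adam17, which sheds tumour necrosis factor and its receptors, had log2 ratios of -0.02, 0.02 and 0.08 in WT and -0.09, 0.03 and -0.03 in c-Maf KO. The groups overlapped, the difference was -0.05 (95% interval -0.21 to 0.10, adjusted p = 0.737), and a second probe that overlaps the first also gave -0.05. Adam10, the main sheddase of Notch receptors, had values of -0.04, 0.01 and -0.05 in WT and 0.08, 0.14 and -0.01 in c-Maf KO, with a difference of 0.10 (95% interval -0.06 to 0.25, adjusted p = 0.562).

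Adam8, a leukocyte sheddase, had log2 ratios from -0.08 to 0.04 in WT and from -0.13 to 0.05 in c-Maf KO, with a difference of 0.01 (95% interval -0.17 to 0.20, adjusted p = 0.947). Adam9 differed by 0.03 (95% interval -0.16 to 0.22, adjusted p = 0.880) and Adam15, a disintegrin that binds integrins, by -0.14 (95% interval -0.34 to 0.06, adjusted p = 0.520). Adam12, known from fusing muscle cells, differed by 0.18 (adjusted p = 0.618), or 0.05 without c-Maf KO replicate 2. In all 4 the groups overlapped.

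Adam19, a sheddase of neuregulin, had log2 ratios of 0.18, 0.00035 and 0.14 in WT and -0.03, -0.33 and -0.00035 in c-Maf KO. Both groups stayed apart by a gap of 0.000701 only, and the difference was -0.23 (SE 0.11, adjusted p = 0.453). Without c-Maf KO replicate 2 it was -0.12. Adam33 had values of 0.08, 0.05 and -0.14 in WT and -2.41, 0.29 and -0.05 in c-Maf KO. Its difference of -0.72 (SE 0.70, adjusted p = 0.690) rested on c-Maf KO replicate 1, the sample with no scanner file here, and was 0.13 without it. A second, dim Adam33 probe read -0.10 in that sample and gave a difference of -0.06.

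Adam11 and Adam22 lack an active catalytic site and bind other membrane proteins. Adam22 had log2 ratios of 0.53, 0.03 and 0.03 in WT and -0.03, -0.27 and -0.10 in c-Maf KO. The groups did not overlap, with WT replicate 1 apart from the other WT samples, and the difference was -0.33 (SE 0.16, adjusted p = 0.458). Without WT replicate 1 it was -0.16, and over the alternatives of processing it ran from -0.38 to -0.16. The Adam22 probe was dim, with a mean processed intensity of 59.2. Adam11 differed by 0.01 (adjusted p = 0.973), while its second, dimmer probe gave 0.39. Adam23, the third of this group, was not detected.

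Of the other 21 Adam genes, most of which are known from testis and sperm, 4 were detected, all on dim probes. Adam6b had log2 ratios of -0.44, -0.20 and -0.01 in WT and 0.10, 0.17 and 0.01 in c-Maf KO, with a difference of 0.31 (SE 0.12, adjusted p = 0.370). A gap of 0.0206 separated the groups. On the 5 arrays the difference was 0.31, and 0.09 with normexp, whose offset of 50 shrinks log2 ratios of dim probes. Adam1a, Adam5 and Adam21 had groups that overlapped and differences of -0.04, -0.25 and -0.32. Without c-Maf KO replicate 1 these were 0.19, -0.21 and -0.12. Adam1a was also positive, at 0.02, without WT replicate 1, so its sign depended on single samples. Adam5 was at -0.14 without c-Maf KO replicate 3. The mean processed intensity of these 4 probes ran from 30.6 for Adam1a to 41.8 for Adam6b.

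Adamts2, which removes the amino-terminal propeptide of fibrillar procollagens, had log2 ratios of -0.17, -1.01 and -0.70 in WT and 0.18, 0.17 and 0.56 in c-Maf KO. No WT value reached a c-Maf KO value, and WT replicate 1 came nearest. The difference was 0.93 (SE 0.23, 95% interval 0.37 to 1.5, adjusted p = 0.229), or 1.91-fold, and the probe lies at chr11:50617472-50617531. Adamts14, of the same procollagen group, differed by 0.32 with overlapping groups (adjusted p = 0.665, with 0.06 without WT replicate 2 and 0.61 without WT replicate 1), and Adamts3 was not detected. The stromal marker mean ran from -0.89 to -0.06 in WT and from 0.12 to 0.53 in c-Maf KO, and its part in these values was not tested.

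Of 7 aggrecanase-like Adamts genes 4 were detected, Adamts1, Adamts4, Adamts5 and Adamts8. Adamts1, which cleaves aggrecan and versican, had log2 ratios of 0.18, -0.97 and -0.96 in WT and -0.05, 0.05 and 0.45 in c-Maf KO. WT replicate 1 lay among the c-Maf KO samples, and the difference was 0.73 (SE 0.34, adjusted p = 0.441), which became 1.11 without that sample. Leaving out WT replicate 2 gave 0.54. Adamts4, which cleaves aggrecan, was well above background on 4 of the 5 arrays and differed by 0.57 (SE 0.38, adjusted p = 0.569) with overlapping groups, or 0.31 without either WT replicate 2 or c-Maf KO replicate 2. Adamts8 differed by -0.33 (adjusted p = 0.471), or -0.20 without c-Maf KO replicate 3.

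Adamts5, the other main aggrecanase, was at the edge of detection. It was well above background on 2 WT arrays and on 0 of the 2 c-Maf KO arrays, and WT replicate 2 read -2.38 against 0.06 and 0.18 in the other WT samples. The c-Maf KO values were 0.15, -0.06 and -0.25. No fold is given, because c-Maf KO has only a bound, and the groups overlapped. The Adamts1 and Adamts5 probes lie 104347 bases apart on chromosome 16.

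Adamts10, which binds fibrillin microfibrils, had log2 ratios of 0.06, 0.08 and 0.19 in WT and -0.29, -0.06 and -0.10 in c-Maf KO. The groups did not overlap, and the difference was -0.26 (SE 0.08, adjusted p = 0.295). On the 5 arrays it was -0.19, and -0.13 with normexp and its offset of 50. A second, dim probe, well above background on 3 of the 5 arrays, gave -0.24 with groups that overlapped. Adamts18 differed by -0.08 with overlapping groups, and by 0.02 without WT replicate 2. The other 7 genes of this group, Adamts6, Adamts7, Adamts12, Adamts13, Adamts16, Adamts17 and Adamts19, were not detected.

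Members just below the detection rule, with 1 array well above background, were Adam4, Adam26a, Adamts12, Mmp9 and Mmp24, and just inside it lay Adamts5 with 2 arrays. A further 39 members had 0 arrays well above background. These included the membrane-type genes Mmp15, Mmp16 and Mmp25, and Mmp21 and Mmp28. No member was saturated on any array.

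Partners of these proteases outside the families were read from a list of 41 regulators, of which 30 were detected. Of the 30, 0 were called, 19 had positive and 11 negative differences with a median of 0.09, 10 lay higher without overlap and 3 lower, beside 11.1% and 8.86% of all genes. In the plasminogen activation system, which activates several Mmp precursors, the urokinase gene Plau had log2 ratios of -0.54, -0.17 and -0.52 in WT and 0.17, 0.18 and 0.52 in c-Maf KO. Its difference was 0.70 (adjusted p = 0.191, and 0.0468 with a variance trend and robust estimation). Its receptor gene Plaur differed by 0.10 (adjusted p = 0.497), and Serpine2, which encodes a serine protease inhibitor, by 0.79 (adjusted p = 0.237).

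Thbs2, a thrombospondin that takes up Mmp2 for clearance, had log2 ratios of -0.14, -0.82 and -1.18 in WT and 0.14, 0.74 and 0.82 in c-Maf KO. The groups did not overlap and the difference was 1.28 (adjusted p = 0.227). Thbs1 differed by 0.89 (adjusted p = 0.229). Pcolce and Pcolce2, enhancers of procollagen processing, differed by 0.72 and 1.14 (adjusted p = 0.334 and 0.255). Sdc1, a proteoglycan that is itself shed, differed by 0.46 (adjusted p = 0.229). These genes lay higher in c-Maf KO, as did the stromal marker mean (-0.89 to -0.06 in WT and 0.12 to 0.53 in c-Maf KO), whose part was not tested. Sdc1 had another order within the groups. WT replicate 2 was its highest WT sample (-0.05) and c-Maf KO replicate 3 its lowest c-Maf KO sample (0.05). In the stromal mean these were the lowest WT and the highest c-Maf KO sample.

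Regulators of the sheddases had separate values. Tspan33, one of the tetraspanins that escort Adam10 to the cell surface, had log2 ratios of 0.40, 0.37 and 0.60 in WT and -0.61, -0.37 and -0.72 in c-Maf KO. All c-Maf KO values lay below all WT values, with a difference of -1.02 (adjusted p = 0.0891). It was called with a variance trend and robust estimation (adjusted p = 0.00270). Tspan14, of the same group, differed by 0.15 (adjusted p = 0.395) without overlap, while Adam10 itself differed by 0.10. Rhbdf2 (iRhom2), which brings Adam17 to maturity in immune cells, had values of 0.11, 0.04 and 0.11 in WT and -0.04, -0.18 and -0.11 in c-Maf KO, with a difference of -0.20 (adjusted p = 0.289). Fbln1, a cofactor of Adamts1, differed by -0.21 (adjusted p = 0.267).

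Shed membrane proteins were read from a list of 36 substrates of Adam proteases, of which 27 were detected. Of the 27, 1 was called higher and 0 lower, 15 had positive and 12 negative differences, 8 lay higher without overlap and 2 lower, and the median was 0.03. Over all genes 0.0347% were called, 11.1% lay higher without overlap and 8.86% lower. The called gene was F11r, a junctional adhesion molecule, with log2 ratios of -0.59, -0.58 and -0.80 in WT and 0.70, 0.84 and 0.58 in c-Maf KO. It rose by 1.37 in c-Maf KO (adjusted p = 0.0268), and on the 5 arrays the same difference did not pass (adjusted p = 0.130).

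Cx3cl1, a membrane-bound chemokine shed by Adam10 and Adam17, had log2 ratios of -0.27, -0.60 and -0.46 in WT and 0.27, 0.48 and 0.57 in c-Maf KO. The groups did not overlap, and the difference was 0.88 (adjusted p = 0.110, and 0.00540 with a variance trend and robust estimation). Csf1, the gene of the growth factor M-CSF, differed by 0.93 (adjusted p = 0.245), Cdh1 by 0.86 (adjusted p = 0.160, and 0.0313 with a variance trend and robust estimation) and Efnb2 by 0.72 (adjusted p = 0.175). Cdh2, Hbegf and Jag1 differed by 0.57, 0.46 and 0.43, and the lower pair were Il6ra at -0.27 and Notch2 at -0.16, none of them called. Tnf, the best known Adam17 substrate and named here after its values were seen, differed by -0.01 (adjusted p = 0.983).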

How the data were processed

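The members and gene lists were chosen with earlier results of these data known. The authors extracted spot intensities with Agilent Feature Extraction 10.7.3.1, per the submitters' processing notes, with detrending on and background correction off, per the file headers. Their deposited value table holds linear ratios of each sample to the probe's median over the 6 samples, on intensities scaled to each array's 75th percentile. This reading was checked against the scanner intensities of 25390 probes. Any floor the authors set on dim values is not stated in those notes or headers.

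Control spots and spots marked as outliers were left out (134 to 167 of 59305 per array), and spots of one probe were averaged. The 75th percentile of intensity was 411 to 495, and 48.9% to 50.5% of probes were well above background. A probe with replicate spots counted as well above background on an array where a share of at least 0.5 of its spots did. Log2 values were tested with limma 3.58.1 (lmFit, eBayes) in R 4.3.3 on 1 probe per gene, without a block, for all 6 samples and for the 5 arrays. The fits were tested on simulated data. Alternatives covered the variance model, array weights, the filter, probes, normalization, background correction, scaling, threshold, replicate block and left-out replicates. The background correction was normexp with an offset of 50. Named were the Timp genes, called members, members with groups that did not overlap, detected Mmp genes, the 10 other members of highest mean intensity, and list genes called or not overlapping. Sequences came from RefSeq (GRCm38.p6), and 76 members matched RefSeq by accession. Probe annotation on mm9 exons was not used here.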

Additional observations from a re-analysis of the deposited data

How the results depend on the processing

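Over 17 alternatives the 25 named members gave 425 values, of which 396 kept direction and side of the threshold, 27 changed sign and 2 came past the threshold. The number of members called with 6 samples was 1 with a variance trend and robust estimation (Mmp11) and ran from 0 to 1 when 1 replicate was left out (1, Timp1, without WT replicate 1). In all, 7 genes were called, against 143 and 100 in those fits, 22 among genes well above background on all 5 arrays, 25 at an adjusted p under 0.10 and 2 to 10 in the other 6-sample fits. On the 5 scanner arrays 0 members were called in any alternative run, and of all genes 80 with a variance trend, 21 with normexp and 0 to 14 otherwise. The median member difference of 0.10 became 0.0012 without a filter, 0.034 with detection on all 5 arrays and 0.16 when all kept probes of a gene were averaged. Members higher without overlap ranged from 7 to 12 when a replicate was left out, beside 14% to 23.6% of all genes, and 11.1% with all samples. The most came without WT replicate 1, where 16.2% of all genes lay higher without overlap. Members lower without overlap numbered 3 with the mean of probes and 3 with quantile normalization, where the share over all genes was not counted. With a replicate left out they ranged from 5 to 11, beside 13.1% to 15.6% of all genes, and 8.86% with all samples. The most came without c-Maf KO replicate 2, where 13.5% of all genes lay lower without overlap. The cause was not tested.

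Sign changes concerned values near 0 or resting on 1 sample. Adam11 was -0.01227 with quantile normalization, -0.009556 with WT replicates 1 and 3 averaged, -0.01377 on 5 arrays and -0.01022 with normexp. Adam33 was 0.1253 on 5 arrays, 0.1256 with normexp and 0.14 with scaling over detected probes. Adam8 was -0.0005458 with WT replicates 1 and 3 averaged, -0.01432 on 5 arrays and -0.0005632 with normexp. Adam9 was -0.02005 on 5 arrays, -0.01063 with normexp and -0.005366 with scaling over detected probes. Mmp19 was -0.009652 with quantile normalization. With 1 replicate left out, ranges were -0.0393 to 0.0773 for Adam11, -1.23 to 0.127 for Adam33, -0.0156 to 0.0730 for Adam8, -0.0184 to 0.0827 for Adam9, -0.0097 to 0.657 for Mmp13 and -0.0559 to 0.0381 for Mmp19.

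With the replicate number as a block, 0 members were called in either fit, and 3 genes in all with 6 samples and 0 on the 5 arrays. Samples of the same number correlated at -0.029, -0.061 and 0.039 in their deviations from the group means, so the numbers were not taken to pair the samples. WT replicates 1 and 3 share a tag in their file names, and the SD of their log2 differences (0.311) was like that of the other WT pairs (0.309 and 0.312). Dim probes limit the precision of Mmp11, Mmp14, Adam6b, Adamts10 and Adam22, among other members.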

Other observations

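Over the 6 samples, the genes whose log2 ratios were most like those of Timp1 were Kirrel, Cyp1b1, Pacsin3 and Evc2, with Pearson correlations of 0.996 to 0.999, given as a description without a test because the samples fall into 2 genotypes. By the same measure the members most like Timp1 were Adamts2 (0.988), Mmp23 (0.980) and Mmp14 (0.942). For Mmp12 the named genes nearest to it were Zfpm1 (0.998), Slc39a3 (0.994), Panx1 (0.992) and Ldha (0.991).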
